A study of Mus musculus with 21 samples.

Results

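The complement genes described here are C1qa, C1qb, C1qc, C3, C4b, Cfb, Cfd, C3ar1 and C5ar1, 9 genes chosen by name as complement components and receptors in mouse left ventricle. A gene was measured through the array probe set that the platform annotation gives to that gene alone. Such a probe set was found for 7 of the 9 genes, out of 19937 genes measured in this way, and each of the 7 had 1 probe set. C3 and Cfd had none and are not analysed here. Values are log2 expression values made by RMA, the robust multi-array average, so that a difference of 1 is a 2-fold change. On arrays such a level may be compared between samples for 1 gene but not between genes.

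RNA from left ventricle myocardium of mice aged 9 to 13 weeks was hybridised to 21 Affymetrix arrays, each with 1 sample. Mice carried the Tg(αMHC-MerCreMer) transgene, which encodes Cre recombinase with a mutated oestrogen receptor domain at each end, or were wild type. The α-myosin heavy chain promoter drives this Cre in cardiomyocytes, and tamoxifen lets the fusion protein enter the nucleus. No floxed target allele is named in the labels of either genotype. Tamoxifen was given into the peritoneum at 40 mg/kg per day, and all hearts were taken 4 days after the injections ended. The groups were MerCreMer mice after 4 days of tamoxifen, MerCreMer mice after 4 days of control injection, MerCreMer mice after 1 day of tamoxifen, MerCreMer mice after 1 day of control injection, wild-type mice after 4 days of tamoxifen and wild-type mice after 4 days of control injection. Each group held 3 arrays, from 1 male and 2 females, except the wild-type controls, which held 6 arrays from 3 males and 3 females. The agent of the control injection is not given in the labels.

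Complement is a cascade of plasma proteins that tags cells and debris for uptake and calls in immune cells. C1q, assembled from the products of C1qa, C1qb and C1qc, starts the classical route by binding antibodies, C-reactive protein or dying cells. Complement component 4, encoded by C4b and part of the classical and lectin convertase, and factor B, the protease of the alternative route encoded by Cfb, lead to cleavage of C3. The fragments C3a and C5a act on the G protein-coupled receptors made from C3ar1 and C5ar1. Resident macrophages are a known source of C1q in many tissues, and both receptors are known on myeloid cells.

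The C1q genes lie side by side on mouse chromosome 4 (RefSeq, assembly GRCm38.p6). C1qb spans chr4:136880126-136886200, C1qc chr4:136889801-136892936 and C1qa chr4:136895916-136898844, a cluster of 18719 bases with gaps of 3600 and 2979 bases between the genes. C4b at chr17:34728139-34743902 and Cfb at chr17:34856374-34862514 lie in the major histocompatibility region. C3ar1 lies at chr6:122847140-122856157 and C5ar1 at chr7:16246743-16259540. RefSeq promoter windows, from 250 bases before to 50 bases after an annotated start, were matched for 4 of the 7 measured genes. For C1qc and C5ar1 that start lies inside the gene span given above, and most of the C5ar1 window lies within the gene. The windows of C1qb, C1qc and C5ar1 are shown. For these genes the tests described further on called a tamoxifen effect that differed between the genotypes and between the injection days. C1qa and C3ar1 had genotype differences of 0.72 and 1.04 that were not called, and calls were lost in some alternative fits. The windows shown lie at chr4:136886151-136886450, chr4:136892865-136893164 and chr7:16259289-16259588, and each is read from the minus strand. Capitals mark GAGGAA, the core bound by the myeloid factor PU.1, or its reverse complement TTCCTC.
C1qb: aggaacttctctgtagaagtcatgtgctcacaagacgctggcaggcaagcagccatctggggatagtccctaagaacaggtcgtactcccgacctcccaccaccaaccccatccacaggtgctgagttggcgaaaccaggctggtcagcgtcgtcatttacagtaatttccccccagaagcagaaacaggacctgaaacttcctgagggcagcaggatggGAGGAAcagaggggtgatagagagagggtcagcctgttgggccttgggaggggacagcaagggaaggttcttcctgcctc
C1qc: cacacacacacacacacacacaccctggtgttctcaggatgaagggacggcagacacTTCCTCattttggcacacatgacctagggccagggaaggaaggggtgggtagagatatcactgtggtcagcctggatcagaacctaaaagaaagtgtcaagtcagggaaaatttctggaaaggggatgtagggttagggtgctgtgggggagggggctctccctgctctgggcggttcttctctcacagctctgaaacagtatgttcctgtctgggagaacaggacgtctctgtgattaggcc
C5ar1: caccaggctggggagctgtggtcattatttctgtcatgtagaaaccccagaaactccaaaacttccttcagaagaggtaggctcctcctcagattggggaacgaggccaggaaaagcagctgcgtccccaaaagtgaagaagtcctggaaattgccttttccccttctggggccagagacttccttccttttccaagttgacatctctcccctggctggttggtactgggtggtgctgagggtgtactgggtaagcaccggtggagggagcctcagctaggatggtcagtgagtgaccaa
GAGGAA was found on either strand in 28.3% of 32851 RefSeq promoter windows of this length. Positions are counted from the start used for each window. GAGGAA occurred 1 time in C1qb, at position -30, and 1 time in C1qc, at position -193 on the opposite strand. It was not in these windows of C5ar1 and C3ar1. The STAT motif TTCNNNGAA (8.3% of windows) and the C/EBP-like motif TTGCNNAA (10.8%) were in none of the 4 windows on either strand.

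The 3 arrays of the MerCreMer 4 tamoxifen group stood apart from the other arrays. Their residual variance over all tested genes was 0.106, against 0.0153 to 0.0232 in the other groups, and they correlated with each other at 0.9182 to 0.9742, whereas the lowest correlation within any other group was 0.9824. The tissue label was checked against markers. All 12 cardiomyocyte markers reached a log2 value of 5, and 3 of the 12 were called lower in MerCreMer mice after 4 days of tamoxifen. Over all genes tested in this comparison 23.3% were called in either direction, and 1071 of 11384 were called lower. The summed linear signal of the 12 markers was 43579 to 55545 in the MerCreMer 4 tamoxifen group, against 57407 to 58165 in the MerCreMer 4 control group. Of 4 tested atrial markers, 1 was called lower and 0 higher in this comparison. It was Myl7, the atrial myosin light chain. Myl7 had 4.07 to 5.04 in the MerCreMer 4 tamoxifen group, against 8.11 to 8.60 in the MerCreMer 4 control group. It had 4.30 to 8.36 after 1 day of tamoxifen and 4.03 to 8.93 after 1 day of control injection in MerCreMer mice. Wild-type mice had 4.68 to 7.82 after tamoxifen and 4.22 to 7.02 after control injection. The change of Myl7 in this comparison was -3.77 (SE 1.11, limma adjusted p = 0.0211). Myl4 had 6.73 to 7.32, against 8.99 to 9.45, and was not called (-2.11, limma adjusted p = 0.0759). Nppa changed by 1.02 and Stard10 by -0.21, and neither was called. The part of atrial tissue in the complement results was not tested. All 12 neutrophil markers and all 4 B-cell markers with a probe set stayed below 5 on every array. The tests used 1 linear model over all arrays (limma), with sex as a covariate and Benjamini-Hochberg adjustment over the 11384 genes whose value reached 5 on at least 3 arrays. Calls were made at an adjusted p under 0.05. All 7 measured complement genes passed this filter, and each also reached 5 on at least 3 of the 18 arrays outside the MerCreMer 4 tamoxifen group.

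After 4 days of tamoxifen in MerCreMer mice, the C1q chains and both anaphylatoxin receptors rose and factor B rose by less, while C4b did not pass the test. In all, 6 of the 7 measured genes were called higher than after 4 days of control injection and 0 were called lower, 4 of them by at least 2-fold. Over all tested genes, 23.3% were called in this comparison and 13.9% were called higher. The median log2 change was 1.02 over the 7 complement genes and 0.01 over all genes tested. In left ventricle RNA, a change in the number of cells of a type and a change in the RNA per cell cannot be told apart.

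**Figure D1:**
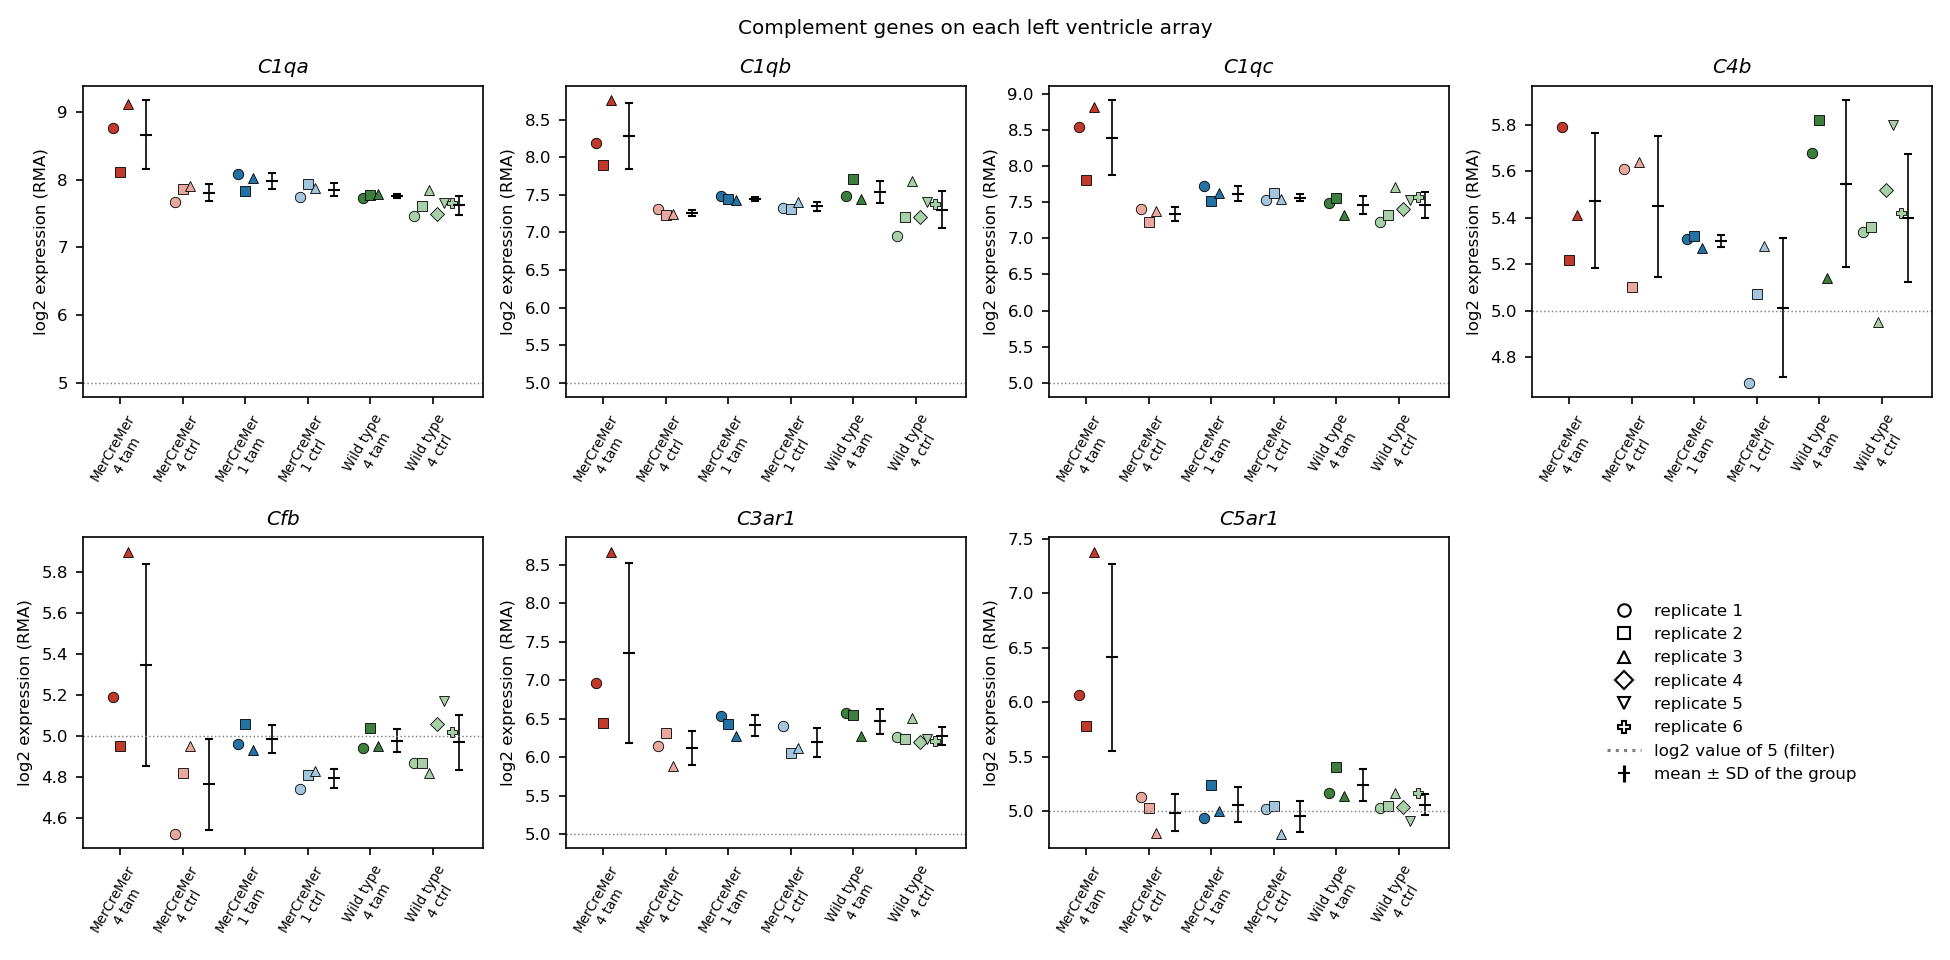
Log2 expression (RMA, vertical axis) of the 7 measured complement genes on each of 21 arrays by group, with a scale for each gene. Symbols are replicates, bars are the group mean ± SD, and the dotted line is the filter value of 5. For C4b the groups overlap. For the C1q genes and C5ar1 all 3 MerCreMer 4 tamoxifen arrays lie above every other array, a pattern not counted over all genes.

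C1qa, the gene of the A chain of C1q, had values of 8.76, 8.11 and 9.12 in MerCreMer mice after 4 days of tamoxifen, against 7.67, 7.86 and 7.90 after 4 days of control injection. It had 8.08, 7.84 and 8.02 after 1 day of tamoxifen in MerCreMer mice and 7.75, 7.93 and 7.88 after 1 day of control injection. Wild-type mice had 7.73, 7.77 and 7.79 after tamoxifen and from 7.46 to 7.85 (median 7.63, n = 6) after control injection. The MerCreMer 4 tamoxifen arrays were the highest of the 21, replicate 2 by a margin of hundredths, a pattern not counted over all genes. The ranges of the other 5 groups overlapped from one to the next. The change against the MerCreMer 4 control group was 0.86 (SE 0.169, limma adjusted p = 0.00169), a 1.81-fold rise. With female arrays only it was 0.74 and was not called (limma adjusted p = 0.0638).

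C1qb, the gene of the B chain, had 8.19, 7.90 and 8.76 in MerCreMer mice after 4 days of tamoxifen, against 7.31, 7.23 and 7.24 in their controls. MerCreMer mice had 7.48, 7.44 and 7.43 after 1 day of tamoxifen and 7.32, 7.31 and 7.41 after 1 day of control injection. Wild-type mice had 7.48, 7.71 and 7.44 after tamoxifen and from 6.95 to 7.69 (median 7.29, n = 6) after control injection. All 3 MerCreMer 4 tamoxifen arrays lay above the other 18, a pattern not counted over all genes. The wild-type controls were the most spread of the other groups. The 4-day change in MerCreMer mice was 1.02 (SE 0.172, limma adjusted p = 0.000482).

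C1qc, the gene of the C chain, had 8.54, 7.81 and 8.82 in MerCreMer mice after 4 days of tamoxifen, against 7.40, 7.22 and 7.38 in their controls. After 1 day of treatment MerCreMer mice had 7.72, 7.51 and 7.62 with tamoxifen and 7.53, 7.62 and 7.54 with control injection. Wild-type mice had 7.49, 7.56 and 7.32 after tamoxifen and from 7.22 to 7.71 (median 7.46, n = 6) after control injection. Replicate 2 was again the lowest of the MerCreMer 4 tamoxifen arrays and still above every array of the other groups. This pattern was not counted over all genes. The 4-day change was 1.06 (SE 0.176, limma adjusted p = 0.000416).

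The 3 C1q genes followed each other outside this group as well. Over the 18 other arrays, Pearson's r was 0.72 between C1qb and C1qc, 0.57 between C1qa and C1qc and 0.50 between C1qa and C1qb. Such values were not particular to the cluster. The other pairs of measured complement genes ran from -0.28 for C1qa with C4b to 0.60 for C3ar1 with C5ar1, and C1qb with C3ar1 had 0.56. These arrays share a normalisation, and the values are descriptions. Among the nearest tested neighbours of the cluster, Lactbl1 and Tex46 on one side changed by 0.09 (limma adjusted p = 0.643) and 0.14 (limma adjusted p = 0.493) in MerCreMer mice after 4 days of tamoxifen. Zbtb40 and Wnt4 on the other side changed by -0.09 (limma adjusted p = 0.465) and -0.22 (limma adjusted p = 0.216). None of these 4 neighbours was called, against 23.3% of all tested genes, and so small a count shows nothing particular to the region. The nearest on each side do not adjoin the cluster, as Lactbl1 ends at chr4:136638110 and Zbtb40 starts at chr4:136979732.

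C4b, which encodes complement component 4, had 5.79, 5.22 and 5.41 in MerCreMer mice after 4 days of tamoxifen, against 5.61, 5.10 and 5.64 in their controls. After 1 day MerCreMer mice had 5.31, 5.32 and 5.27 with tamoxifen and 4.69, 5.07 and 5.28 with control injection. Wild-type mice had 5.68, 5.82 and 5.14 after tamoxifen and from 4.95 to 5.80 (median 5.39, n = 6) after control injection. The groups overlapped throughout, and no group stood out. The 4-day change in MerCreMer mice was 0.02 (SE 0.213, limma adjusted p = 0.947), with a 95% confidence interval from -0.42 to 0.47. C4a, a near-identical copy at chr17:34809092-34823460, has a probe set of its own that reached 5 on 2 arrays, and its values correlated with those of C4b at 0.72 over 21 arrays, so that signal could be shared between the copies.

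Cfb, the gene of factor B, had 5.19, 4.95 and 5.90 in MerCreMer mice after 4 days of tamoxifen, against 4.52, 4.82 and 4.95 in their controls. MerCreMer mice had 4.96, 5.06 and 4.93 after 1 day of tamoxifen and 4.74, 4.81 and 4.83 after 1 day of control injection. Wild-type mice had 4.94, 5.04 and 4.95 after tamoxifen and from 4.82 to 5.17 (median 4.94, n = 6) after control injection. Replicate 2 of the MerCreMer 4 tamoxifen group met the highest of its controls, and only 5 of the 18 arrays outside that group reached 5, so the gene sat near the filter value. The 4-day change was 0.58 (SE 0.15, limma adjusted p = 0.0107). The call was lost when arrays were weighted by their quality (change 0.21, limma adjusted p = 0.258) and without MerCreMer 4 control replicate 1 (0.51, limma adjusted p = 0.0555). It was also lost with female arrays only and with the arrays of the compared groups alone. Without MerCreMer 4 tamoxifen replicate 3 the change was 0.33 (limma adjusted p = 0.0363). The 4 tested genes between C4b and Cfb, which are Stk19, Dxo, Skiv2l and Nelfe, changed by 0.25, -0.08, 0.06 and 0.13, and none of them was called. Of the nearest tested genes outside this stretch, Atf6b changed by 0.30 (limma adjusted p = 0.0309) and Tnxb by -0.52 (limma adjusted p = 0.0977) on one side. Ehmt2 changed by 0.22 (limma adjusted p = 0.0211) and Zbtb12 by -0.16 (limma adjusted p = 0.501) on the other, so that Atf6b and Ehmt2 were called higher. Over all tested genes 23.3% were called and 13.9% called higher, and these counts show nothing particular to the region.

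C3ar1, the gene of the C3a receptor, had 6.96, 6.44 and 8.67 in MerCreMer mice after 4 days of tamoxifen, against 6.15, 6.32 and 5.88 in their controls. MerCreMer mice had 6.54, 6.43 and 6.27 after 1 day of tamoxifen and 6.41, 6.05 and 6.12 after 1 day of control injection. Wild-type mice had 6.57, 6.55 and 6.28 after tamoxifen and from 6.20 to 6.51 (median 6.24, n = 6) after control injection. Replicate 3 stood far above all other arrays, replicate 1 came next, and replicate 2 lay within the range of the wild-type and 1-day arrays. The 4-day change was 1.24 (SE 0.34, limma adjusted p = 0.0147). Without replicate 3 of the MerCreMer 4 tamoxifen group it was 0.55 (limma adjusted p = 0.00609), and with array weights it was 0.59 (limma adjusted p = 0.037). Without MerCreMer 4 control replicate 3 the adjusted p was 0.06. The call was also lost with female arrays only.

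C5ar1, the gene of the C5a receptor, had 6.07, 5.78 and 7.38 in MerCreMer mice after 4 days of tamoxifen, against 5.13, 5.03 and 4.80 in their controls. MerCreMer mice had from 4.94 to 5.24 after 1 day of tamoxifen (3 arrays) and 5.02, 5.05 and 4.79 after 1 day of control injection. Wild-type mice had 5.17, 5.41 and 5.14 after tamoxifen and from 4.91 to 5.17 (median 5.05, n = 6) after control injection. All 3 MerCreMer 4 tamoxifen arrays lay above the other 18, a pattern not counted over all genes. On those 18 arrays the gene was near the filter value. The 4-day change was 1.42 (SE 0.255, limma adjusted p = 0.000808), a 2.68-fold rise. Without replicate 3 it was 0.93 (limma adjusted p = 5.6e-05).

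In this comparison 5 of the 7 genes had all 3 arrays of MerCreMer mice after 4 days of tamoxifen above all 3 control arrays. They were the C1q chains and both receptors, and 16.6% of all tested genes had this pattern. How many of all genes had all 3 above the other 18 arrays, as the C1q genes and C5ar1 did, was not counted. All 6 called genes were also called without replicate 3 of the MerCreMer 4 tamoxifen group. With the spread taken from the 6 arrays of these groups alone, 0 of the 7 were called, with limma adjusted p from 0.157 to 0.353 for the 6 genes, and 18 genes in all were called in place of 2654. The changes themselves were the same in that fit, but the standard errors rose for the 6 called genes. They ran from 0.229 for C1qb to 0.553 for C3ar1, against 0.172 and 0.34 in the main fit. That of C4b fell from 0.213 to 0.174. The main p values rest on a spread pooled over all groups. The MerCreMer 4 tamoxifen group had the widest spread, with a residual variance of 0.106. The fit of these groups alone also has fewer arrays. The part of each in the lost calls was not tested.

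**Figure D2:**
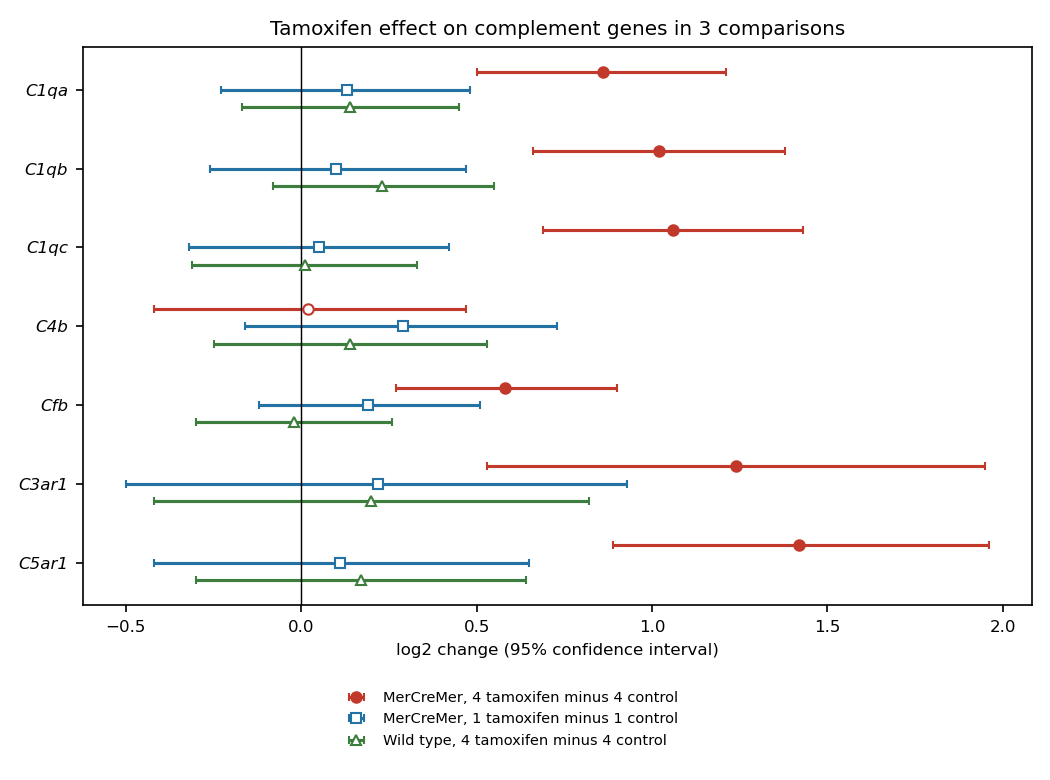
Log2 change of each complement gene with its 95% confidence interval (horizontal axis) in 3 comparisons, tamoxifen minus control injection. Filled symbols passed the test. The 4-day effect in MerCreMer mice was 0.58 to 1.42 for the 6 called genes, and all intervals of the other comparisons include 0.

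A day of tamoxifen in MerCreMer mice, and 4 days of tamoxifen in wild-type mice, were tested in the same way. After 1 day in MerCreMer mice 0 of the 7 genes were called by limma (0.00878% of all genes were called), and 0 had an unadjusted p under 0.05, as 380 of all genes did. Their changes were small and above 0 for all 7, from 0.05 for C1qc to 0.29 for C4b. The median over all genes was 0.02, and how many of all genes lay above 0 was not counted. C1qb and Cfb had all 3 tamoxifen arrays above all 3 control arrays, as 6.88% of all tested genes did. In wild-type mice 0 of the 7 genes were called (0% of all genes), and again 0 had an unadjusted p under 0.05, as 295 of all genes did. The wild-type changes ran from -0.02 for Cfb to 0.23 for C1qb. At this precision the interval for C3ar1 still reached 0.93 in the 1-day comparison and 0.82 in wild-type mice.

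Whether the tamoxifen effect differed was tested directly. The 4-day effect in MerCreMer mice exceeded that in wild-type mice for 3 of the 7 genes (7.98% of all genes were called, 4.45% higher). The difference was 1.05 (SE 0.233, limma adjusted p = 0.0101) for C1qc, 1.25 (SE 0.338, limma adjusted p = 0.0295) for C5ar1 and 0.79 (SE 0.229, limma adjusted p = 0.0418) for C1qb. It was 0.72 for C1qa (limma adjusted p = 0.0555), 0.60 for Cfb (limma adjusted p = 0.0705), 1.04 for C3ar1 (limma adjusted p = 0.161) and -0.11 for C4b (limma adjusted p = 0.845). The count was 1 of 7 without MerCreMer 4 control replicate 2 or 3 or wild-type 4 tamoxifen replicate 1 or 3, and 6 of 7 without MerCreMer 4 tamoxifen replicate 2. C1qc was the gene called in each of these 5 fits.

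The 4-day effect in MerCreMer mice exceeded the 1-day effect for the same 3 genes (5.78% of all genes were called, 2.78% higher). The difference was 1.01 (SE 0.248, limma adjusted p = 0.0235) for C1qc, 0.92 (SE 0.244, limma adjusted p = 0.034) for C1qb and 1.31 (SE 0.361, limma adjusted p = 0.0389) for C5ar1. It was 0.73 for C1qa (limma adjusted p = 0.0778), 1.02 for C3ar1 (limma adjusted p = 0.211), 0.39 for Cfb (limma adjusted p = 0.278) and -0.26 for C4b (limma adjusted p = 0.634). The count was 0 without replicate 2 of the MerCreMer 4 control, 1 tamoxifen or 1 control group, 1 without replicate 1 or 3 of any of these 3 groups, and 6 without MerCreMer 4 tamoxifen replicate 2. Both tests use the MerCreMer 4 tamoxifen and 4 control arrays and are not independent of each other or of the first comparison.

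MerCreMer mice were also set against wild-type mice after the same injections. After 4 days of tamoxifen 4 of the 7 genes were called higher in MerCreMer mice (27.6% of all genes were called, 17.7% higher). The difference was 0.90 (SE 0.169, limma adjusted p = 0.000948) for C1qa, 0.94 (SE 0.176, limma adjusted p = 0.00096) for C1qc, 0.74 (SE 0.172, limma adjusted p = 0.00496) for C1qb and 1.17 (SE 0.255, limma adjusted p = 0.003) for C5ar1. For these 4 genes the groups did not overlap, a pattern that 21% of all tested genes had in the higher direction. C3ar1 differed by 0.89 (limma adjusted p = 0.0586), Cfb by 0.37 (limma adjusted p = 0.0753) and C4b by -0.07 (limma adjusted p = 0.822). This comparison shares the MerCreMer 4 tamoxifen arrays with the first.

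After control injections no difference between groups passed the test for these genes. With 4 control injections, 0 of the 7 genes were called between MerCreMer and wild-type mice by limma (0.676% of all genes), 0 had an unadjusted p under 0.05, and the differences ran from -0.23 for Cfb to 0.18 for C1qa. Between 4 and 1 control injections in MerCreMer mice 0 were called (0% of all genes) and 0 had an unadjusted p under 0.05, with differences from -0.23 for C1qc to 0.43 for C4b. C1qb and C1qc were lower on every array after 4 control injections than on every array after 1, C1qb by a margin below the decimals printed, as 4.12% of all genes were. Between males and females 0 were called by limma (0.29% of all genes). Cfb had the largest difference of the 7, with -0.18 (unadjusted p = 0.048, limma adjusted p = 0.51), and it was the only gene of the 7 with an unadjusted p under 0.05.

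The 3 MerCreMer 4 tamoxifen arrays differed in size of change, in 1 order for 6 of the 7 genes. Relative to the mean of the MerCreMer 4 control arrays, the mean of C1qa, C1qb and C1qc was 1.03 higher on replicate 1, 0.47 higher on replicate 2 and 1.43 higher on replicate 3. C5ar1 was 1.08, 0.79 and 2.40 higher on the same arrays, C3ar1 0.84, 0.32 and 2.55 higher, and Cfb 0.43, 0.18 and 1.13 higher. C4b alone did not keep this order, with 0.34, -0.23 and -0.04. The change of C3ar1 was close to that of the C1q mean on replicates 1 and 2, where it differed by -0.19 and -0.15, and exceeded it by 1.12 on replicate 3. C5ar1 exceeded the C1q mean by 0.05, 0.32 and 0.96 on these arrays.

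Macrophage markers moved on the same arrays. Of 19 tested markers of macrophages 18 were called higher in MerCreMer mice after 4 days of tamoxifen, with a median change of 0.98, against 13.9% higher over all genes. Cd14 and Gpnmb passed the filter only through the MerCreMer 4 tamoxifen arrays, and of the other 17 markers 16 were called higher. Without MerCreMer 4 tamoxifen replicate 3, 15 of 19 were called and the median was 0.52. The median of these markers relative to the MerCreMer 4 control mean was 0.85, 0.27 and 1.88 on replicates 1, 2 and 3. The summed linear signal of the 22 markers with a probe set was 2257 to 6579 in the MerCreMer 4 tamoxifen group, against 1700 to 1775 in the MerCreMer 4 control group. It was 2005 to 2157 after 1 day of tamoxifen and 1645 to 2018 after 1 day of control injection in MerCreMer mice, and 1763 to 2106 after tamoxifen and 1701 to 1935 after control injection in wild-type mice. None of the 22 markers stayed below 5 on every array. For the neutrophil list, whose 12 members all stayed below 5, the sum was 113 to 169 in the MerCreMer 4 tamoxifen group, against 125 to 139 in its controls. Of 15 fibroblast markers 1 was called higher and 3 were called lower, a share near the 23.3% of all genes. Of 8 tested acute phase genes 6 were called higher, with a median change of 0.87. Their median relative to the MerCreMer 4 control mean was 0.54, 0.45 and 1.38 on replicates 1, 2 and 3. Of 10 tested interferon genes 5 were called higher, with a median change of 0.55. Of the 9 that passed the filter outside the MerCreMer 4 tamoxifen group 4 were called higher. The interferon median was 0.77, 0.12 and 0.69 on these replicates. The part of macrophage number or of array quality in the complement changes was not tested.

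**Figure D3:**
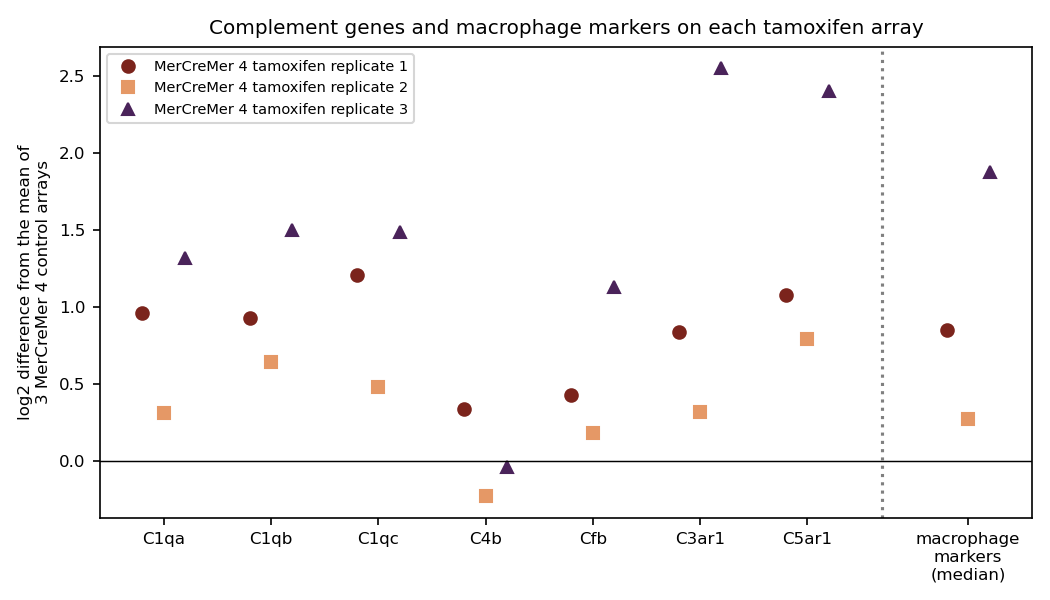
Log2 difference of each MerCreMer 4 tamoxifen array from the mean of the 3 MerCreMer 4 control arrays (vertical axis) for the 7 complement genes and for the median of 19 macrophage markers. Symbols are replicates 1, 2 and 3. Replicate 3 is highest and replicate 2 lowest for the markers and for 6 of the 7 genes, and C4b is the exception.

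The genes whose values followed the complement genes most closely over the 21 arrays were listed as a description. The mean of the 3 C1q genes was most alike to Colgalt1, a collagen galactosyltransferase (r = 0.97), followed by Slc7a8, an amino acid transporter (r = 0.96), Eif1a, a translation initiation factor (r = 0.95), Alox5ap, the 5-lipoxygenase activating protein (r = 0.95), and Pf4, a chemokine (r = 0.95). Over the 18 arrays outside the MerCreMer 4 tamoxifen group r was 0.85 for Colgalt1, 0.58 for Slc7a8, 0.67 for Eif1a, 0.79 for Alox5ap and 0.77 for Pf4. C3ar1 was most alike to the leukocyte genes Cd53 and Laptm5 and to Pgd, with r of 0.97, 0.97 and 0.96 over 21 arrays and 0.72, 0.61 and 0.62 over the 18. C5ar1 was most alike to Cd68, a lysosomal protein of macrophages, Ttc37 and Fcer1g, an Fc receptor chain, with r of 0.97 for each over 21 arrays and 0.62, 0.57 and 0.62 over the 18. For Cfb the nearest genes were Mcm3, Gmfb and Lsp1, with r of 0.92, 0.91 and 0.90 over 21 arrays and 0.69, 0.61 and 0.64 over the 18. For C4b they were Klhl36, Myom3 and Tmem17, with r of 0.70, 0.69 and 0.64 over 21 arrays and 0.80, 0.73 and 0.58 over the 18.

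The rest of the complement system was counted from 4 lists, to be read against the 23.3% of all tested genes called and the 13.9% called higher. With 1 to 8 tested genes a list, these counts show nothing particular to a list. Of 16 other initiating components 8 were tested, and 2 rose in MerCreMer mice after 4 days of tamoxifen while 0 fell, with a list median of 0.02. Cfp, the gene of properdin, which stabilises the alternative convertase, had 6.64, 6.16 and 7.40 in the MerCreMer 4 tamoxifen group, against 5.41 to 5.62 in its controls. It rose by 1.22 (SE 0.199, limma adjusted p = 0.000381), and by 0.90 without replicate 3. Fcna, the gene of ficolin A, a lectin route recognition protein, had 5.41, 5.67 and 5.72, against 5.01 to 5.35 in the controls, and rose by 0.40 (SE 0.0917, limma adjusted p = 0.00537). The proteases C1s1 and Masp1 did not pass, with -0.20 (limma adjusted p = 0.388) and -0.26 (limma adjusted p = 0.228). C1ra, C2, Mbl1, Masp2, Fcnb and Colec10 stayed below 5 on every array.

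Among receptors outside the main set, 2 of 8 tested rose and 0 fell, with a list median of 0.20. They were Itgam and Itgb2, which encode the chains of complement receptor CR3, an integrin of myeloid cells. Itgam had 6.52, 5.79 and 8.04 in MerCreMer mice after 4 days of tamoxifen, against 5.09 to 5.34 in their controls, and rose by 1.57 (SE 0.32, limma adjusted p = 0.00222). Itgb2 had 5.97, 5.38 and 7.28, against 4.80 to 4.93 in the controls, and rose by 1.34 (SE 0.279, limma adjusted p = 0.00262). Without replicate 3 of the MerCreMer 4 tamoxifen group these changes were 0.95 and 0.80. C5ar2, the other C5a receptor, changed by 0.20 (limma adjusted p = 0.461), and Cr2 and Itgax stayed below 5 on every array.

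Among the regulators 1 of 7 tested rose and 0 fell, with a list median of -0.09. It was Clu, the gene of clusterin, a chaperone that also binds terminal complement complexes, with 11.13, 11.48 and 12.36 in MerCreMer mice after 4 days of tamoxifen, against 10.78 to 10.89 in their controls. It rose by 0.83 (SE 0.186, limma adjusted p = 0.00421), and by 0.50 without replicate 3. Unlike the C1q genes and the receptors, Clu was lowest on replicate 1. Serping1, the gene of the C1 inhibitor, changed by -0.04 (limma adjusted p = 0.817). Of 7 terminal components only C7 was tested, with a change of -0.19 (limma adjusted p = 0.61), and Hc, C6, C8a, C8b, C8g and C9 stayed below 5 on every array. In the 1-day comparison in MerCreMer mice, the 4-day comparison in wild-type mice and the comparison of the genotypes after control injections, 0 genes of these 4 lists were called. After 4 days of tamoxifen, 4 genes of these lists were higher in MerCreMer than in wild-type mice. Over all tested genes 27.6% were called in this comparison and 17.7% were called higher, and these counts show nothing particular to a list. Cfp differed by 0.94 (limma adjusted p = 0.0024) and Clu by 0.82 (limma adjusted p = 0.00377). Itgam differed by 1.43 (limma adjusted p = 0.0035) and Itgb2 by 1.05 (limma adjusted p = 0.0109). In the same comparison C7, with a difference of -0.70 (limma adjusted p = 0.0397), and Cd59a, the gene of an inhibitor of the membrane attack complex, with -0.72 (limma adjusted p = 0.0416), were lower.

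**Figure D4:**
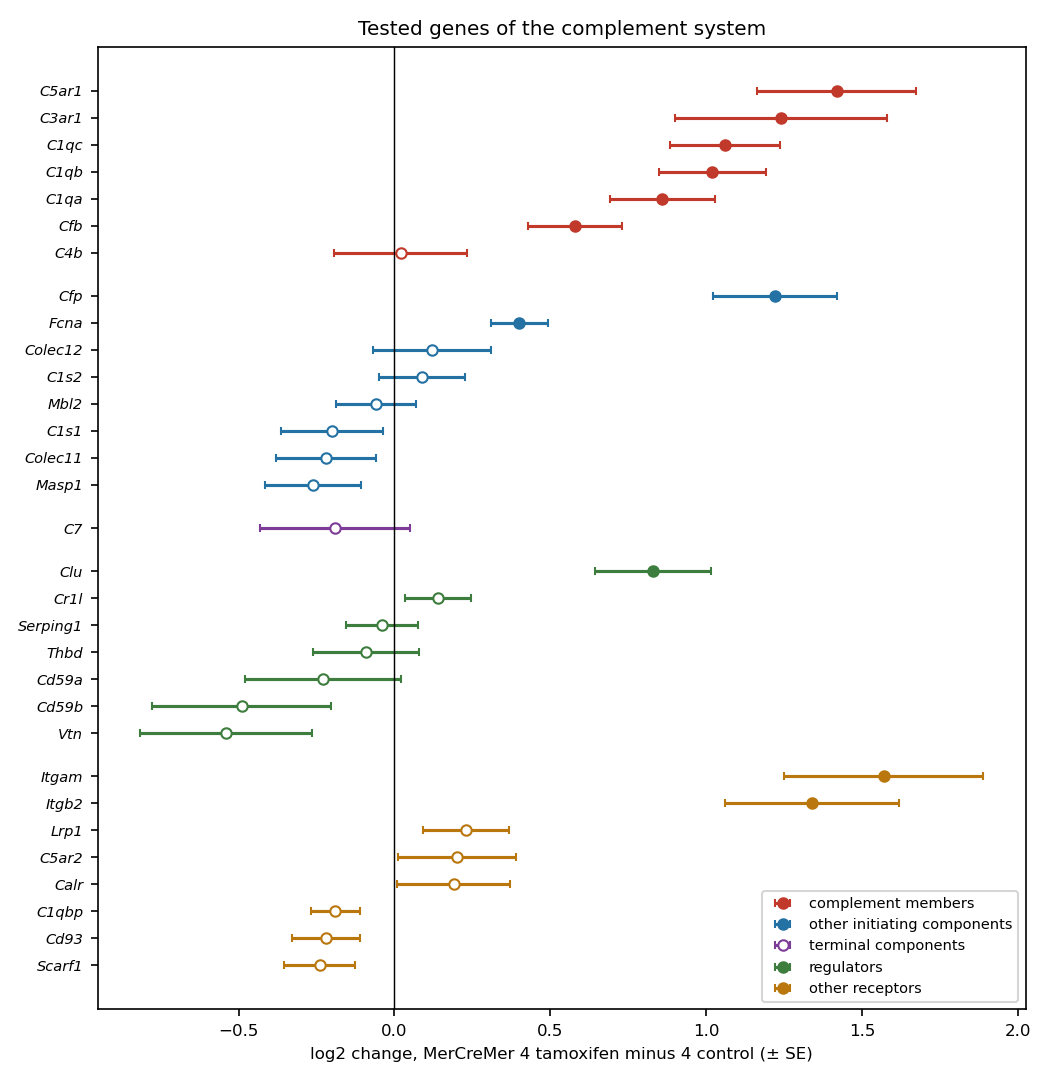
Log2 change ± SE (horizontal axis) in MerCreMer mice after 4 days of tamoxifen minus control injection, for every tested gene of the complement system, grouped by role. Filled symbols passed the test at an adjusted p under 0.05. The filled genes are C1qa, C1qb, C1qc, Cfb, C3ar1 and C5ar1 of the main set, and Cfp, Fcna, Clu, Itgam and Itgb2 of the other lists.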

How the data were processed

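Left ventricle RNA of 21 samples was measured on Affymetrix arrays. The deposited log2 values come from RMA, as the submitters' processing notes state without a version. RMA corrects background, quantile normalises arrays and summarises probes, which takes out a shift common to most genes. Array medians ran from 4.57 to 4.72. Scan batches were not analysed here. Of 34760 probe sets, 21640 had 1 annotated gene, 1321 several and 11799 none. Where a gene had several single-gene probe sets, that of highest mean log2 value was used. In all, 99.6% of Entrez identifiers matched RefSeq (GRCm38.p6).

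The 6 group means and sex were fitted with limma 3.58.1 (R 4.3.3, 14 residual and 3.98 prior degrees of freedom). The fit was tested on simulated data in which all groups had the same spread. That test could not show how the wider spread of the MerCreMer 4 tamoxifen group acts on its calls. Tables and motif searches used Python 3.11.15. The complement genes, gene lists and tests were chosen with earlier results of these data known. Named were all 9 genes, called or lowest-p genes of 4 complement lists, and genes with the highest Pearson r. Genes named after their values were seen were C5ar2, C1s1, Masp1, Serping1, C4a, Cd59a, the atrial markers and the genomic neighbours. Nothing says that replicates came from separate animals, so p values measure the spread between samples. Replicate numbers were not taken as a pairing of samples. Each result had up to 31 alternatives, of which 21 left out 1 array.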

Additional observations from a re-analysis of the deposited data

Results flagged for a closer look

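In wild-type mice after 4 days of control injection, C3ar1 on replicate 3 had a log2 value of 6.51, while the other 5 arrays lay from 6.20 to 6.26. Its gap to the nearest array was 0.794 of the range, above Dixon's critical value of 0.625. The other 6 genes gave no such array in this group, the 1 group large enough to be examined, and chance flags about 1 in 20 such groups.

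The tamoxifen effect differed between groups by the test of the difference itself for C1qb, C1qc and C5ar1. The 4-day effect in MerCreMer mice exceeded that in wild-type mice by 0.79 for C1qb, 1.05 for C1qc and 1.25 for C5ar1. The 4-day effect in MerCreMer mice exceeded the 1-day effect by 0.92 for C1qb, 1.01 for C1qc and 1.31 for C5ar1. The genotype difference lost its call in 22 of 31 alternatives for C1qb, 1 of 31 for C1qc and 7 of 30 for C5ar1, and the day difference in 14 of 31, 7 of 31 and 19 of 30. All 6 differences rest on the same MerCreMer 4 tamoxifen arrays, whose residual variance was 0.106.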

How the results depend on the processing

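The 16 complement results called in the main analysis kept their sign in all 491 alternative fits and their call in 404 of them. The 47 results not called changed sign in 61 of 1407 fits without a call in either, and became called in 10. For MerCreMer mice after 4 days of tamoxifen against control injection, the 6 calls became 0 with the arrays compared alone and 3 with female arrays only, and 5 to 6 when 1 array was left out. The calls lost with female arrays only were those of C1qa, Cfb and C3ar1. Against wild-type mice after tamoxifen, the 4 calls became 0 with the arrays compared alone, 3 with array weights (C1qb lost, 0.42, limma adjusted p = 0.0654) and 4 to 6 with 1 array left out. For the difference between genotypes, the 3 calls became 1 with the arrays compared alone, 0 with female arrays only, and 1 to 6 with 1 array left out. For the difference between injection days, the 3 calls became 0 with the arrays compared alone, 1 with array weights, 1 with no filter, 0 with female arrays only, and 0 to 6 with 1 array left out. Fits with fewer arrays have fewer degrees of freedom, and those of the arrays compared alone also take their spread from these arrays only. The cause of the changes in calls was not tested. With the replicate number as a replicate block, 6 genes remained called in the first comparison, 1 (C1qc) for the genotype difference and 0 for the day difference. Deviations from the group means correlated between same-numbered arrays at 0.11, -0.04 and 0.05 in the first comparison. In the other comparisons these correlations ran from -0.24 to 0.36, and the number was not taken as a pairing. Array weights gave MerCreMer 4 tamoxifen replicates 1, 2 and 3 weights of 0.241, 1.222 and 0.07, and with them the changes of C1qa, C1qb, C1qc and C5ar1 were 0.44, 0.71, 0.63 and 0.95. Over all genes the first comparison called 2654 genes in the main fit, 18 with the arrays compared alone, 1490 with array weights, 1065 with weights from group variances, 1502 with female arrays only and 1888 with the block. The same alternatives were run after seeing the data for the other complement genes named. There, the calls of Cfp, Fcna, Clu, Itgam and Itgb2 were lost with the arrays compared alone (limma adjusted p from 0.197 to 0.299), those of Itgam and Itgb2 also with female arrays only (0.0548 and 0.0533), and that of Fcna with weights from group variances (0.0968). Macrophage markers called were 18 in the main fit, 1 with the arrays compared alone and 6 with array weights, with a median of 0.42 there. C4b, Cfb and C5ar1 were not tested with the filter at 6. The number of arrays limits precision, and values near 5 are close to background.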

Other observations

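A terminal component, C7, differed by sex, and it was picked out after its value was seen. Its log2 values ran from 5.79 to 7.35 (median 6.51) on the 8 male arrays and from 4.46 to 5.36 (median 4.87) on the 13 female arrays, with no overlap. The difference was 1.63 (SE 0.134, limma adjusted p = 9.14e-07), and males were higher than females within each of the 6 groups. In wild-type controls the males had 6.32 to 7.35 and the females 4.70 to 5.13.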
